A study of Mus musculus with 16 samples.

Results

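The deletion of Zfp36l1 in the liver was compared with the intact gene over both diets at once. Liver RNA was sequenced in 16 libraries, in 4 groups of 4, and all 16 of the series entered the comparison. Mice with an intact Zfp36l1 gene (WT) and mice in which Zfp36l1 was knocked out in the liver alone (LKO) received a control or an ethanol diet. The 8 LKO libraries were set against the 8 WT libraries, with diet as a second term. With all 16 libraries each difference is thus the average of the differences on the control and the ethanol diet. When a library is left out, the limma fit does not weigh the diets equally. Libraries are called by group and a number from 1 to 4, which follows the order of the records and was not used to pair libraries. The labels used here do not give the strain, age or sex of the mice, the promoter that drove the deletion, the make-up or length of the diets, or whether each library is 1 animal. The p-values therefore measure the spread between these libraries, part of which may be technical.

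ZFP36L1 is a zinc-finger protein of the family of tristetraprolin (ZFP36). These proteins bind AU-rich stretches in the 3′ untranslated region (UTR) of messenger RNAs, recruit the deadenylase complex and so shorten the life of the transcript. A transcript that such a protein destabilises is expected to be more abundant when the protein is lost. The title of the series names Fgf21, which encodes a hormone that the liver secretes in fasting, protein restriction and alcohol intake, as a transcript whose turnover ZFP36L1 controls. The comparison asks which liver transcripts, Fgf21 among them, differ with the loss of Zfp36l1 on either diet.

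The core of the preferred binding site reads UAUUUAU in RNA. The letters TATTTAT were searched on the sense strand in the longest annotated 3′ UTR of each gene (GENCODE M21, GRCm38), counting overlapping matches. Each sequence below is a stretch of 30 bases, 5′ to 3′, with every complete or cut-off 7-base match in capitals. Shown are Fgf21, the called genes of the comparison with all 16 libraries that hold a match, and Zfp36l1 itself.
Fgf21: TTTATtacgggTATTTATctTATTTATTTA
Elovl3: taaaatggagtTATTTATATTTATatttag
Acpp: ttgtttttactTATTTATtttttactgtcg
Nxpe2: tattatttaatTATTTATgtgtacgtgtga
Tbc1d31: tttttttcaacTATTTATtctaatttttta
Rcan2: tcagacaaaccTATTTATtataaaatctca
Steap2: taaattttgatTATTTATcagagctaatta
Zfp36l1: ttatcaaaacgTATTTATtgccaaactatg

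The stretch of Fgf21 lies at chr7:45613947-45613976 on the minus strand, and its 3′ UTR of 134 bases holds 4 matches. That of Elovl3 lies at chr19:46135046-46135075 on the plus strand and holds both matches of that UTR. Those of Acpp (chr9:104290627-104290656, minus strand) and Zfp36l1 (chr12:80108421-80108450, minus strand) are the first of 2 and of 3 matches. Nxpe2 (chr9:48318696-48318725, minus), Tbc1d31 (chr15:57969913-57969942, plus), Rcan2 (chr17:44037906-44037935, plus) and Steap2 (chr5:5670329-5670358, minus) hold 1 match each. Such a match is a description of the sequence and not a measured binding site.

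Total reads recovered from the table ranged from 19069828 to 24768501 in 15 libraries and came to 9884479 in WT ethanol library 2. That library stood apart. Its rank correlation with the others over genes was 0.66 to 0.72, against 0.86 to 0.99 among the 15. Mitochondrial transcripts took 22.5% of its reads, against 3.64 to 6.97% in the 15. Haemoglobin and other erythroid markers summed to 2165 FPKM in it, against at most 286.5 in the 15. In the 15 libraries Xist, which is transcribed from the inactive X chromosome of females, measured 13.7 to 49.4 FPKM and 4 Y-linked genes at most 0.045. WT ethanol library 2 held both kinds, with Xist at 6.62 and the Y-linked Ddx3y at 1.43 FPKM. It was kept because its label places it in the WT ethanol group, and counts and most differences are given with it (16 libraries) and without it (15 libraries). After group means were removed, the leading principal component held 40% of what variance was left, and it split the 15 libraries: libraries 1 and 2 of every group lay on one side (7 in all) and libraries 3 and 4 on the other (8). The labels name no batch that goes with this.

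The targeted transcript was low in every LKO library. Zfp36l1 (ENSMUSG00000021127, protein-coding, chr12:80107754-80113013, minus strand, GRCm38) measured 9.79, 9.30, 25.5 and 14.8 FPKM in WT control libraries 1 to 4, and 9.87, 13.2, 21 and 23.4 in the WT ethanol libraries. In LKO it measured 1.03, 0.836, 1.42 and 1.40 FPKM without ethanol and 0.688, 0.572, 1.60 and 1.76 with it. FPKM counts the reads of a gene relative to the length of the gene and the size of the library. The highest LKO library thus lay far below the lowest WT library, and the LKO values rested on 36 to 130 reads each. LKO minus WT was −2.89 on the scale of log2(FPKM + 1) (SE 0.222, limma adjusted p = 1.59e-06), and −2.92 without WT ethanol library 2 (SE 0.225, adjusted p = 5.19e-06). In the exact permutation test within diets, two-sided, the observed difference gave p = 0.000408, which is the smallest value that the 4900 arrangements can give. The labels place the deletion in the liver, and in bulk RNA fewer cells of a type and less RNA per cell cannot be told apart. Which cells gave the reads left in LKO was not tested.

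Fgf21 did not differ beyond the spread of its groups. It is an endocrine fibroblast growth factor, and its gene (ENSMUSG00000030827) lies at chr7:45613886-45615490 on the minus strand. On the control diet it measured 3.95, 4.28, 37.2 and 8.05 FPKM in WT and 7.04, 6.48, 13.1 and 6.47 in LKO. On the ethanol diet it measured 16.2, 3.15, 55.3 and 48.9 FPKM in WT and 57.0, 113, 63.0 and 9.46 in LKO. The genotypes overlapped on both diets: the highest control value was that of a WT library, and LKO ethanol library 4 lay below 3 of the 4 WT ethanol libraries. Over both diets LKO minus WT was 0.49 (SE 0.584, exact permutation p = 0.478) with 16 libraries. Without WT ethanol library 2, at 3.15 FPKM, it was 0.10 as the average of the diets (exact permutation p = 0.873) and 0.085 in the limma fit (SE 0.499, adjusted p = 0.931). The 2 sides of the split went opposite ways, with 1.26 among libraries 1 and 2 and −0.95 among libraries 3 and 4.

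Neither of the relatives Zfp36 and Zfp36l2 passed the test. Zfp36 encodes tristetraprolin itself, and its difference was 0.14 with 16 libraries (SE 0.455, limma adjusted p = 0.943) and −0.29 without WT ethanol library 2 (SE 0.268, adjusted p = 0.512). That library held 1.69 FPKM of Zfp36, against 12.8 to 69.2 in the 15 others. Zfp36l2 stood at 0.21 (SE 0.331, adjusted p = 0.870) and −0.071 (SE 0.226, adjusted p = 0.867), and WT ethanol library 2 was again the lowest, at 1.89 FPKM. For both relatives the sign thus turned with the library that stood apart.

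Of 11298 genes tested, 13 (0.115%) were called at a limma adjusted p under 0.05 with all 16 libraries, 9 higher in LKO (0.0797%) and 4 lower (0.0354%). The genes were those with an FPKM of at least 1 in at least 4 libraries. At an unadjusted p under 0.05 there were 1137 genes (10.1%). Without WT ethanol library 2, 68 genes were called (0.602%), 26 higher (0.23%) and 42 lower (0.372%), and all 13 were among them. The unadjusted count was then 2519 (22.3%), with 2.5% of all genes higher in LKO and 19.8% lower. More genes were lower than higher in LKO. The median of LKO minus WT over all genes was −0.083 with 16 libraries, where 63.3% of the genes were lower, and −0.17 with 15, where 79.95% were lower. Quantile normalization and median-of-ratios scaling bring this median close to 0 by construction (−0.0092 and 0.015 with 15 libraries). With 15 libraries the calls were then 35 higher and 9 lower, and 79 higher and 18 lower. With 16 libraries they were 17 higher and 3 lower, and 30 higher and 5 lower. With the split of the 15 libraries as a further term 1120 genes were called, 144 higher (1.27%) and 976 lower (8.64%), all 68 among them. That split was found in the same data. Of the 13 calls, 11 were also made under quantile and 12 under median-of-ratios scaling, and of the 68, 31 and 44.

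**Figure D1:**
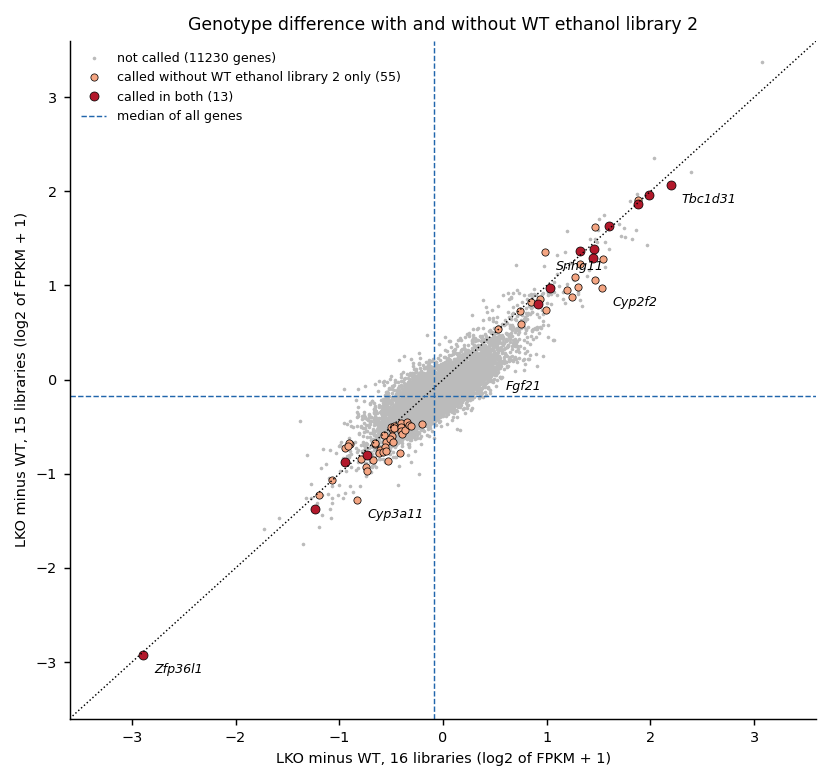
LKO minus WT for each of the 11298 genes, as log2 of FPKM + 1, with 16 libraries (x axis) and without WT ethanol library 2 (y axis). Dashed lines mark the medians of all genes, the dotted line equal values; the 13 genes called in both fits lie close to the dotted line, while the median of all genes lies below 0 on both axes.

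The genes called higher included those of an elongase (Elovl3), a sulfotransferase (Sult5a1) and a sugar transporter (Slc2a5). Tbc1d31, a TBC-domain protein known from the centrosome and the cilium, was the largest rise and the only one of the 5 largest in which no LKO library overlapped a WT library. Tbc1d31 measured 2.46, 5.84, 1.77 and 2.47 FPKM in WT on the control diet and 1.23, 0.733, 2.18 and 3.87 on ethanol. In LKO it measured 24.8, 7.88, 11.3 and 12.1 FPKM on the control diet and 30.2, 11.4, 19.5 and 8.20 on ethanol. The lowest LKO library lay above the highest WT library, WT control library 2. The difference was 2.20 (SE 0.304, limma adjusted p = 0.00376) with 16 libraries and 2.07 (SE 0.293, adjusted p = 0.0039) with 15. It was 2.24 and 1.92 on the 2 sides of the split.

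Elovl3, an elongase that makes very long-chain fatty acids, rose by 1.98 (SE 0.295, limma adjusted p = 0.00769), and by 1.96 in the 15 libraries (adjusted p = 0.00919). It measured 2.11, 0.842, 3.68 and 1.70 FPKM in WT without ethanol, and 0.241, 0, 0.0276 and 0 with it. In LKO it measured 6.09, 7.26, 5.78 and 33.0 FPKM on the control diet and 5.09, 1.62, 3.67 and 4.46 on ethanol. Within each diet the groups were apart, and only pooling made LKO ethanol libraries overlap WT control libraries. LKO control library 4 was the highest by far, and without any 1 library Elovl3 stayed called, with a highest adjusted p of 0.0264. It lost its call in 3 of 9 other settings, with an adjusted p of up to 0.107 (no diet term).

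Nxpe2, Cnmd and Slc2a5 were also kept with any 1 library left out. In other settings Nxpe2 lost its call in 3 of 10, with an adjusted p of 0.464 without a diet term, and Cnmd and Slc2a5 in 1 each of 9 (0.0759 and 0.0762). Without WT ethanol library 2 the differences were 1.29 for Nxpe2, 1.39 for Cnmd and 1.36 for Slc2a5, all called. Slc2a5, the fructose transporter GLUT5, measured 1.26, 2.04, 0.65 and 2.99 FPKM in WT and 6.21, 4.33, 11.2 and 6 in LKO on the control diet. On the ethanol diet Slc2a5 measured 0.781, 1.5, 1.80 and 0.97 FPKM in WT and 5.37, 2.52, 3.38 and 4.19 in LKO. Every LKO library thus exceeded every WT library of its diet, by 1.32 over both diets (SE 0.211, limma adjusted p = 0.0107). Cnmd, which encodes the cartilage glycoprotein chondromodulin, was 1.45 higher (SE 0.199, adjusted p = 0.00376), with 0 to 2.44 FPKM in WT and 1.62 to 7.57 in LKO. Nxpe2 was 1.45 higher as well (SE 0.224, adjusted p = 0.00973). It was lower on ethanol in both genotypes, at 0.3 to 2 FPKM in WT and 4.62 to 10.2 in LKO, against 9.37 to 12.1 and 17.5 to 31.0 on the control diet.

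Acpp, the acid phosphatase known from prostate, rose by 1.88 (SE 0.294, limma adjusted p = 0.00973), from 0.466 to 2.59 FPKM in WT to 1.16 to 16.4 in LKO. It too was called with any 1 library left out, and lost its call in 1 of 9 other settings (0.0784). The other 3 genes called higher were not. Sult5a1, a sulfotransferase, rose by 1.60 (adjusted p = 0.0423), but the call was lost in 12 of the 16 fits that left out 1 library, with a highest adjusted p of 0.112. Cabp2, a calcium-binding protein, rose by 1.03 (adjusted p = 0.0433) and was lost in 12 of 16 fits as well. Cabp2 rested on 0 to 15 reads in WT libraries and 12 to 72 in LKO libraries. All 8 WT libraries were below 1 FPKM, so Cabp2 entered the test only through LKO, and with no filter on low values its adjusted p was 0.178. Jazf1, a zinc-finger cofactor of nuclear receptors, rose by 0.91 (SE 0.158, adjusted p = 0.0229), with 0 to 1.20 FPKM in WT and 1.48 to 2.69 in LKO and no overlap of the 8 and 8 libraries. Jazf1 was lost in 4 of 16 fits. It kept its call in all 15 fits that left out WT ethanol library 2 and 1 more. With the 15 libraries the differences were 1.87 for Acpp, 1.64 for Sult5a1, 0.98 for Cabp2 and 0.81 for Jazf1, all called.

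Besides Zfp36l1, Atp6v0d2, Rcan2 and Steap2 fell. Rcan2, a regulator of calcineurin, measured 3.68, 3.59, 3.40 and 2.81 FPKM in WT on the control diet and 3.77, 5.95, 3.09 and 4.78 on ethanol. In LKO Rcan2 measured 1.87, 1.58, 1.87 and 1.03 FPKM on the control diet and 1.39, 0.705, 1.74 and 2.04 on ethanol. The 8 LKO libraries all lay below the 8 WT libraries, with a difference of −0.95 (SE 0.154, limma adjusted p = 0.012). With quantile normalization the adjusted p of Rcan2 was 0.166 with 16 libraries and 0.0508 with 15. Atp6v0d2, a subunit of the proton pump of lysosomes, fell by 1.24 on the log2 scale (SE 0.219, adjusted p = 0.0268), from 1.75 to 9.38 FPKM in WT to 1.06 to 2.77 in LKO. Steap2, a metalloreductase of iron and copper uptake, fell by 0.74 (SE 0.137, adjusted p = 0.0423), and its 8 LKO libraries lay below the 7 WT libraries other than WT ethanol library 2. With 1 of the 16 libraries left out, Rcan2 was called in every fit, Atp6v0d2 was lost in 8 of 16 (highest adjusted p 0.0893) and Steap2 in 11 of 16 (0.123). Steap2 was below 1 FPKM in all 8 LKO libraries and entered the test only through WT, and with no filter its adjusted p was 0.125 with 16 libraries and 0.0315 with 15. Without WT ethanol library 2 all 3 were called, at −1.38 for Atp6v0d2, −0.87 for Rcan2 and −0.80 for Steap2, and were kept when 1 more library was left out.

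**Figure D2:**
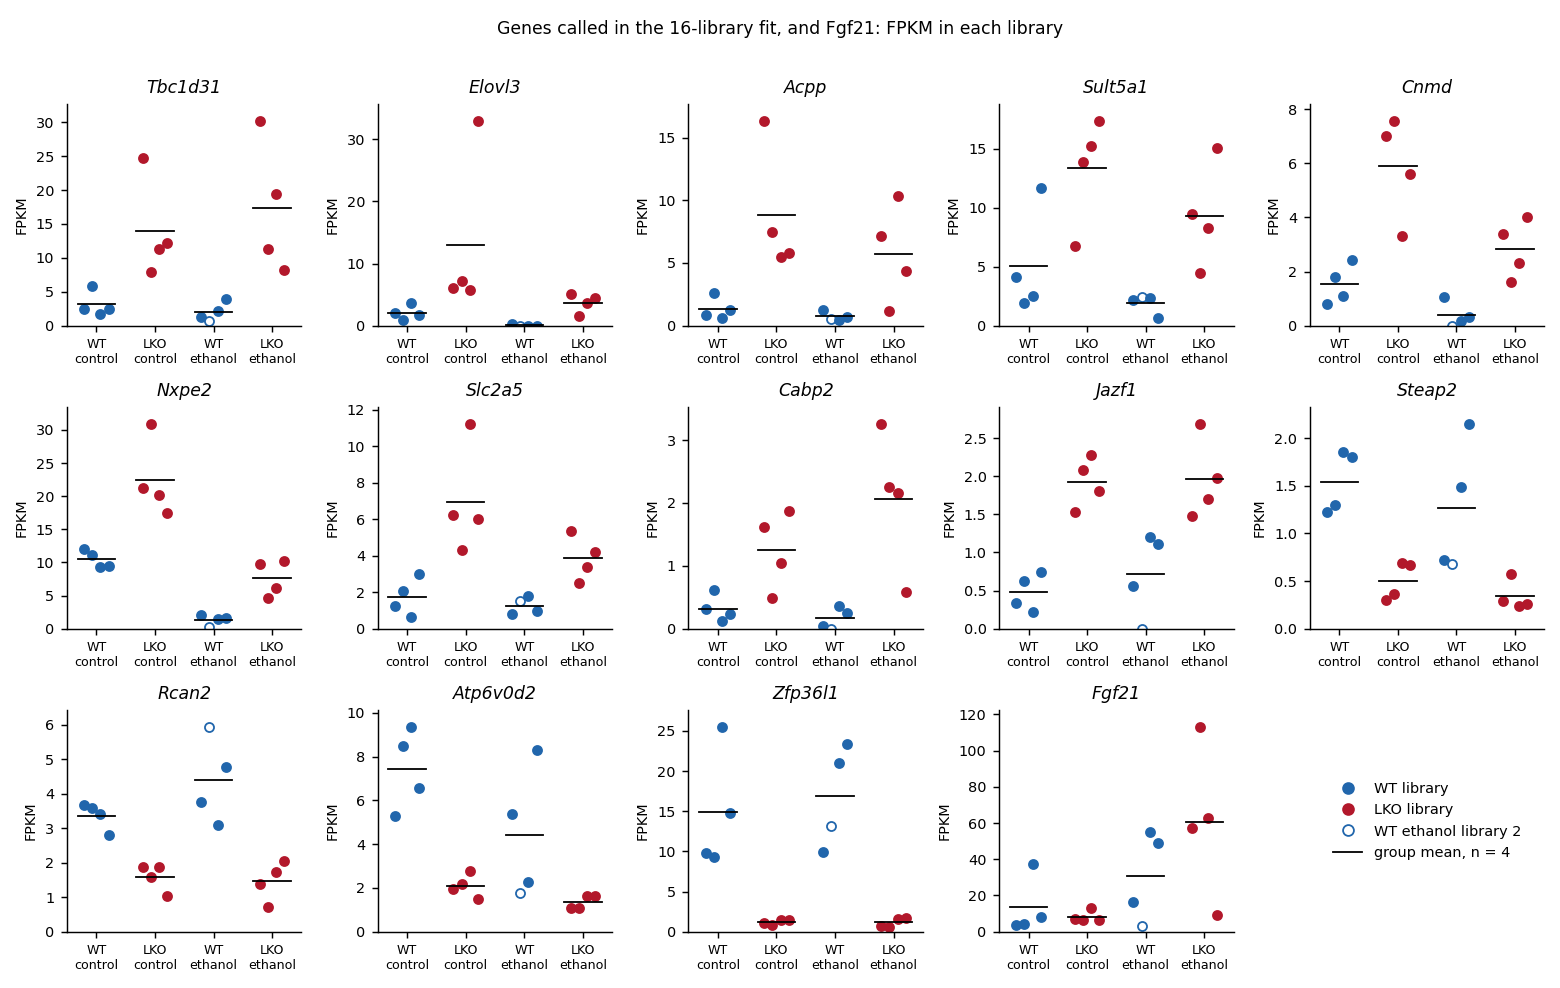
FPKM (y axis, linear, from 0) of the 13 genes called with 16 libraries and of Fgf21 in each library, by group (x axis); blue points are WT, red points LKO, the open point WT ethanol library 2, and lines group means of 4 libraries. Tbc1d31, Jazf1, Rcan2 and Zfp36l1 show no overlap of the genotypes over both diets, whereas the groups of Fgf21 overlap on each diet.

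Over all genes, the 8 LKO and 8 WT libraries did not overlap for 19 genes (0.168%), 7 with LKO higher and 12 lower. Against the 7 WT libraries other than WT ethanol library 2 there were 52 such genes (0.46%), 8 with LKO higher and 44 lower. Of the 13 called genes, 4 had no overlap over 16 libraries. Some genes called only without WT ethanol library 2 were apart from all 8 WT libraries too, and were chosen for description after their values were seen. Cmas, which activates sialic acid for glycoproteins, measured 19.9 to 34.0 FPKM in the 7 WT libraries, 6.49 in WT ethanol library 2 and 41.5 to 63.3 in LKO. Its difference was 0.95 (SE 0.127, limma adjusted p = 0.00334) and it kept its call in all 15 fits with 1 more library left out. With 16 libraries it was 1.20 (adjusted p = 0.0867). H2-Q10, a class I histocompatibility protein secreted by the liver, measured 352 to 493 FPKM in WT and 521 to 789 in LKO, with a difference of 0.54 (adjusted p = 0.0389), and 0.53 with 16 libraries (adjusted p = 0.192). H2-Q10 lost its call in 10 of 15 fits with 1 more library left out. Serpine2, an inhibitor of serine proteases, fell by 0.67 (adjusted p = 0.00919), from 0.545 to 5.39 FPKM in WT to 0.11 to 0.335 in LKO. Chchd7, a small mitochondrial protein, fell by 0.69 (adjusted p = 0.00969), and Ccdc28b fell by 0.69 (adjusted p = 0.00935). These 3 kept their calls with any 1 more library left out. In other settings of the 15 libraries Serpine2 and Chchd7 kept theirs, while Ccdc28b lost its call with quantile normalization (adjusted p = 0.0676). Serpine2 entered the test only through WT libraries, and with no filter its adjusted p was 0.0276 with 15 libraries. With 16 libraries Serpine2 stood at −0.90 (adjusted p = 0.148), Chchd7 at −0.90 (0.147) and Ccdc28b at −0.65 (0.0558).

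Among the genes called only with the 15 libraries, Ces3b had the largest rise, followed by Mup2, Snhg11, Me1, Cyp2g1 and Srd5a1. Ces3b, a carboxylesterase, measured 72.8, 84.3, 38.5 and 124 FPKM in WT on the control diet and 16.5, 11.2, 3.24 and 4.83 on ethanol. In LKO Ces3b measured 168, 167, 182 and 191 FPKM on the control diet and 74.7, 20.4, 35.4 and 91.8 on ethanol. Within each diet every LKO library was above every WT library, and the difference was 1.91 (SE 0.383, limma adjusted p = 0.0359), against 1.88 with 16 libraries (adjusted p = 0.0561). Me1, the cytosolic malic enzyme that supplies NADPH for fat synthesis, rose by 1.28 (adjusted p = 0.0299), with 22.8 to 116 FPKM in the 7 WT libraries and 49.5 to 188 in LKO. Srd5a1, the steroid 5-alpha-reductase, rose by 1.09 (adjusted p = 0.0455), and Cyp2g1 rose by 1.23 (adjusted p = 0.0455). Enpep, the aminopeptidase that cleaves angiotensin, rose by 0.99 (adjusted p = 0.0299). With 16 libraries the differences were 1.54 for Me1 (adjusted p = 0.0867), 1.27 for Srd5a1 (0.0867), 1.32 for Cyp2g1 (0.0593) and 1.30 for Enpep (0.172). With 1 more of the 15 libraries left out, Ces3b, Srd5a1 and Cyp2g1 each lost their call in 9 of 15 fits, Enpep in 8 and Me1 in 7.

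Snhg11, a host transcript of small nucleolar RNAs, gives the plainest case of how WT ethanol library 2 acted on a call. Snhg11 measured 0.367, 0.55, 0.224 and 0.327 FPKM in WT on the control diet and 0.973, 11.3, 0.33 and 0.736 on ethanol. In LKO it measured 1.88, 2.71, 3.18 and 5.03 FPKM on the control diet and 2.33, 1.56, 2.29 and 4.93 on ethanol. WT ethanol library 2 was above all LKO libraries and the 7 other WT libraries were below them. The difference was 0.98 (limma adjusted p = 0.375) with 16 libraries and 1.36 (adjusted p = 0.00334) with 15, where it was kept with any 1 more library left out. The 7 other WT libraries were all below 1 FPKM, so Snhg11 entered the test only through LKO and WT ethanol library 2. With no filter on low values its limma adjusted p was 0.0276 with 15 libraries.

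Fgfrl1, a receptor-like protein that binds fibroblast growth factors but lacks the kinase domain, was the called member of the FGF21 axis (1 of 12 tested). It was called with 15 libraries, where 0.602% of all genes were. At an unadjusted p under 0.05 the axis then held 1 higher member (all genes 2.5%) and 1 lower (all genes 19.8%). Its median was −0.12, against −0.17 for all genes. Fgfrl1 measured 9.65, 16.9, 10.4 and 19.1 FPKM in WT on the control diet and 4.93, 0, 13.2 and 6.84 on ethanol. In LKO it measured 22.9, 22, 34.8 and 30.5 FPKM on the control diet and 22, 12.7, 27.1 and 16.3 on ethanol. The value of 0 is that of WT ethanol library 2. Without it Fgfrl1 was 1.06 higher (SE 0.214, limma adjusted p = 0.0372), and with it the difference was 1.46 but with an adjusted p of 0.195. The call was lost in 8 of 15 fits with 1 more library left out. The coreceptor of FGF21, Klb, and the receptors Fgfr1 to Fgfr4 were not called in either fit.

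Cyp3a11 and Plin4 had the largest falls among the genes called only without WT ethanol library 2. Cyp3a11, the main drug-metabolising enzyme of its family in mouse liver, measured 861, 693, 864 and 418 FPKM in WT on the control diet against 177, 209, 128 and 233 in LKO. On the ethanol diet Cyp3a11 measured 1273, 79.3, 648 and 466 FPKM in WT and 492, 636, 426 and 446 in LKO. The control diet groups were thus apart and the ethanol groups overlapped, with differences of −1.90 and −0.56, whose own difference was not called (interaction 1.34, limma adjusted p = 0.968). Over both diets Cyp3a11 fell by 1.28 on the log2 scale (SE 0.274, adjusted p = 0.0455). With 16 libraries it stood at −0.83 (adjusted p = 0.576), and on the ethanol diet at 0.24, so that its direction there turned with WT ethanol library 2. Plin4, a coat protein of lipid droplets, fell by 1.23 (adjusted p = 0.045), with 3.14 to 11.5 FPKM in WT and 0.882 to 4.84 in LKO. Slc25a34, a mitochondrial carrier, fell by 1.06 (adjusted p = 0.046), Cyp2c38 fell by 0.97 (adjusted p = 0.0359) and Raet1e, a ligand of natural killer cell receptors, fell by 0.93 (adjusted p = 0.0299). Sdr9c7, Scpep1 and Rac3 fell by 0.85 to 0.87. With 16 libraries Plin4 stood at −1.20 (adjusted p = 0.069), Slc25a34 at −1.07 (0.0675) and Rac3 at −0.79 (0.0867). Cyp2c38, Raet1e, Sdr9c7 and Scpep1 then stood at −0.53 to −0.75, with adjusted p of 0.283 to 0.635. With 1 more of the 15 libraries left out, Cyp3a11 lost its call in 12 of 15 fits, Plin4, Slc25a34, Scpep1 and Rac3 in 10 each, and the other 3 in 5 to 8. In other settings of the 15 libraries each of these genes lost its call 3 to 5 times. With quantile normalization the adjusted p was 0.108 for Plin4, 0.13 for Slc25a34, 0.146 for Raet1e and 0.190 for Sdr9c7.

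Vldlr, the receptor that takes up triglyceride-rich lipoproteins, fell by 0.75 (SE 0.137, limma adjusted p = 0.0224) without WT ethanol library 2. On the control diet Vldlr measured 1.09, 1.30, 1.22 and 0.746 FPKM in WT and 0.358, 0.496, 0.346 and 0.147 in LKO. On ethanol it measured 3.49, 1.23, 3.25 and 5.97 FPKM in WT and 1.44, 2.88, 1.48 and 1.53 in LKO. It was higher on ethanol in both genotypes and lower in LKO on each diet, apart from WT ethanol library 2. Cyp2f2, a cytochrome P450 of periportal hepatocytes, rose by 0.97 (SE 0.173, adjusted p = 0.0216). Its 8 LKO libraries, at 216 to 473 FPKM, lay above all WT libraries, at 102 to 199 with WT ethanol library 2 at 4.44. With 16 libraries Vldlr stood at −0.61 (adjusted p = 0.251) and Cyp2f2 at 1.53 (0.320). Vldlr lost its call in 1 and Cyp2f2 in 3 of 15 fits with 1 more library left out. In other settings of the 15 libraries Vldlr lost it in 2 of 10 and Cyp2f2 in 1 of 11. Their highest adjusted p there was 0.298 and 0.0557, both with no diet term.

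All 13 genes called with 16 libraries and all 68 called with 15 had the same sign on the control and on the ethanol diet, and the same sign on both sides of the split. Since the call is made on a difference pooled over the diets, a shared sign is partly built into it. No gene had a genotype difference that differed between diets at an adjusted p under 0.05 (limma interaction, 0 of 11298 in either fit, with 362 and 499 at an unadjusted p under 0.05). Among the called genes the lowest adjusted p of the interaction was 0.927 with 16 libraries and 0.968 with 15. The differences still had unequal estimates in places: Ces3b stood at 1.25 on the control diet and 2.68 on ethanol, and Scpep1 at −0.55 and −1.20.

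**Figure D3:**
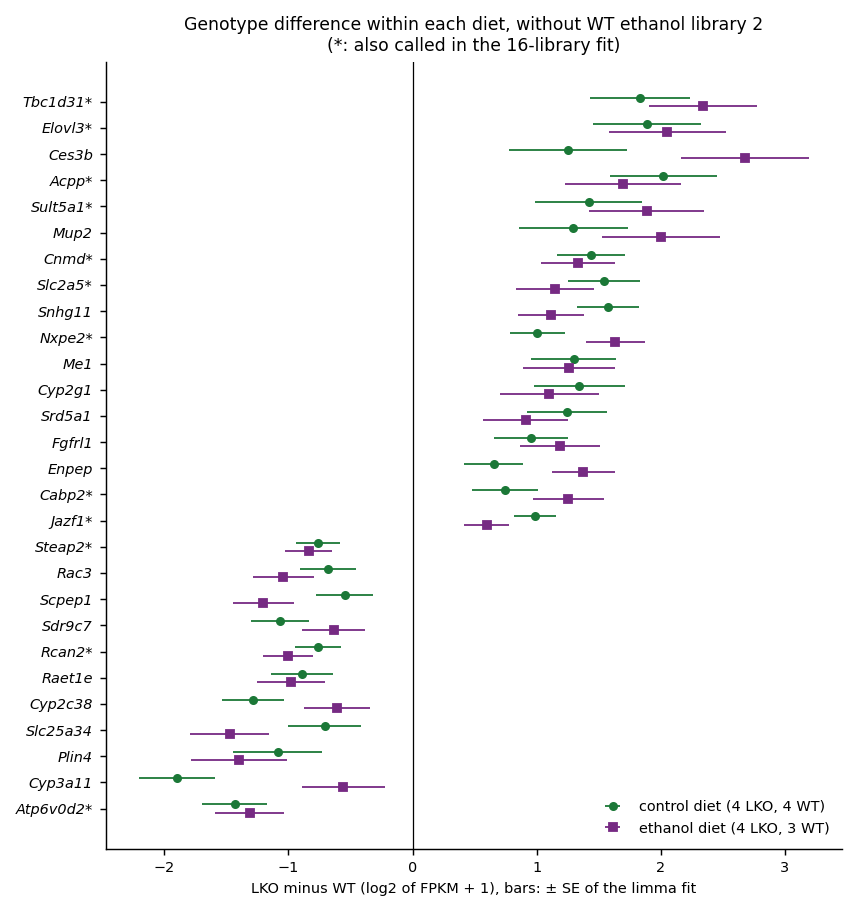
LKO minus WT on the control diet (green, 4 against 4 libraries) and the ethanol diet (purple, 4 against 3 libraries) as log2 of FPKM + 1 (x axis) for the named called genes other than Zfp36l1 (y axis), with bars of 1 SE of the limma group-mean fit. Each gene lies on the same side of 0 on both diets, and the bars of the diets are apart for some genes, such as Ces3b and Cyp3a11. An asterisk marks genes also called with 16 libraries.

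Of 33 genes of fat synthesis and storage, 1 was called higher (Me1) and 2 lower (Plin4 and Vldlr) in the 15-library fit, where 0.602% of all genes were called, and none with 16 libraries. At an unadjusted p under 0.05, 12 were higher, where 2.5% of all genes were, and 5 lower, where 19.8% were, and the median of the list was 0.062, against −0.17 for all genes. With 16 libraries the median of the list was 0.35, against −0.083. The list thus lay above all genes by 0.43 with 16 libraries and 0.23 with 15, and under the 2 other scalings by 0.37 and 0.38 with 16 libraries and by 0.24 and 0.28 with 15. Fasn, the fatty acid synthase, measured 42.3, 208, 25.6 and 162 FPKM in WT and 182, 131, 242 and 340 in LKO on the control diet. On ethanol Fasn measured 13.5, 40.2, 28.7 and 17.0 FPKM in WT and 86.5, 49.6, 248 and 122 in LKO. The ethanol groups were apart and the control groups overlapped through WT control libraries 2 and 4. Fasn had a difference of 1.89 (SE 0.445, limma adjusted p = 0.0554), and 1.80 with 16 libraries (adjusted p = 0.140). Other members that were picked after their values were seen stood at 2.35 for Thrsp (adjusted p = 0.0718), 1.62 for Acly, the citrate lyase (0.0843), and 1.52 for Elovl6 (0.0727). With 16 libraries these were 2.03, 1.75 and 1.72, with adjusted p of 0.274, 0.163 and 0.143. Pklr, the liver pyruvate kinase, stood at 1.43 (adjusted p = 0.0541) among 21 genes of glucose metabolism, of which none was called in either limma fit (4 higher and 3 lower unadjusted with 15 libraries). With 16 libraries Pklr stood at 1.96 (adjusted p = 0.212). With a term for the split, 8 members of the fat list passed higher and 2 lower, Fasn at an adjusted p of 0.0224. That fit called 1.27% of all genes higher and 8.64% lower.

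Of 28 genes of fatty acid oxidation and ketogenesis none was called in either limma fit, 2 were higher (all genes 2.5%) and 8 lower (all genes 19.8%) at an unadjusted p under 0.05, and the median was −0.14, close to that of all genes. With 16 libraries the median was 0.13. Relative to all genes the list stood at 0.031 with 15 libraries, at −0.11 after quantile normalization and at 0.076 under median-of-ratios scaling. With 16 libraries the same were 0.21, 0.089 and 0.23. Its direction relative to all genes thus turned in 1 of these 6 settings, and that of its own median with WT ethanol library 2. With the split as a term, Acot1, Acot2, Cyp4a14, Pdk4 and Angptl4 passed lower and Acaa1b and Fabp1 higher. Pdk4, the kinase that shuts off pyruvate oxidation, stood at −1.75 (SE 0.400, limma adjusted p = 0.0541) without WT ethanol library 2. It measured 4.23, 1.73, 21.7 and 2.37 FPKM in WT and 1.68, 1.62, 2.24 and 1.10 in LKO on the control diet. On ethanol Pdk4 measured 27.8, 0.493, 19.3 and 9.62 FPKM in WT and 2.09, 4.38, 1.28 and 2.14 in LKO. The 4 highest WT values were reached by no LKO library, while WT ethanol library 2 was the lowest of all. Cyp4a14, Acot2 and Angptl4 stood at −1.26, −1.20 and −0.69, with adjusted p of 0.0774, 0.0814 and 0.0727. With 16 libraries Pdk4 stood at −1.35 (adjusted p = 0.375), and these 3 at −1.07, −0.95 and −0.66 (0.324, 0.411 and 0.251). Acot1 and Acot2 also lie on chromosome 12, within 5 Mb of Zfp36l1.

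Of 41 tested transcripts reported elsewhere as targets of the ZFP36 family, 0 were called in either limma fit. At 0.602% of all genes called, that is near the background. At an unadjusted p under 0.05, 0 were higher (all genes 2.5%) and 6 lower (all genes 19.8%), and their median was −0.23, or −0.062 relative to all genes. With 16 libraries it was 0.10 relative to all genes, so its direction turned with WT ethanol library 2. Notch1, one of these, stood at −0.58 (adjusted p = 0.0533), and at −0.38 with 16 libraries (0.576). Of 22 genes of AU-rich element binding and deadenylation, Zfp36l1 alone was called. At an unadjusted p under 0.05 with 15 libraries, 1 of the 22 was higher and 9 were lower, Zfp36l1 included. Their median was −0.29, against −0.17 for all genes, and −0.16 with 16 libraries, against −0.083. Inflammation (27 genes) and acute phase proteins (24) had 0 called members, with 0 and 2 higher and 1 and 3 lower at an unadjusted p under 0.05, against the same 2.5% and 19.8% of all genes.

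Matches to the AU-rich core were spread over genes of both directions. Of the 10529 tested genes with an annotated 3′ UTR, 3066 held TATTTAT at least once (29.1%). Among the genes called with 16 libraries, it was held by 4 of 9 called higher and 3 of 4 called lower, the deleted Zfp36l1 among these 3. With 15 libraries it was held by 12 of 25 called higher with an annotated UTR (48%) and 13 of 37 called lower (35.1%), Zfp36l1 again included. Their median UTR lengths were 826 and 1455 bases, against 1112 for all genes. Over all genes, those with the match had a median difference of −0.167 and those without it −0.171 in the 15 libraries, and −0.050 and −0.090 with 16. With the genes put in 4 bins of UTR length, the medians in the shortest bin were −0.049 for 186 genes with the match and −0.14 for 2448 without. In the 2 bins between they were −0.13 against −0.16 and −0.16 against −0.19, and in the longest −0.20 for both. These are descriptions with no test, and the lengths of the compared UTRs differ.

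**Figure D4:**
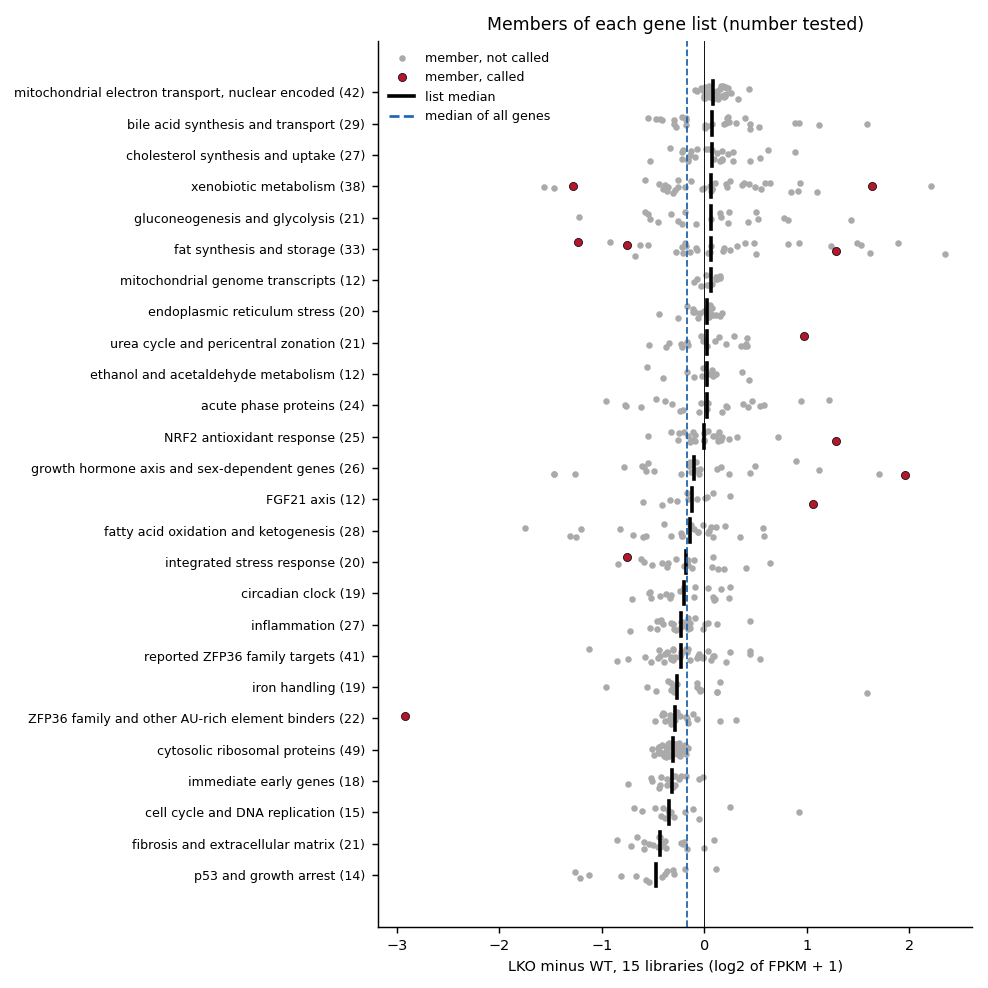
LKO minus WT without WT ethanol library 2, as log2 of FPKM + 1 (x axis), for each tested member of the gene lists (y axis, number of members tested in brackets). Red points are called members, black bars list medians, and the dashed line the median of all genes at −0.17; called members are few, and none is seen in most lists.

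Conjugation and drug metabolism had 1 member called higher of 38 (Sult5a1, in both fits) and 1 lower (Cyp3a11, without WT ethanol library 2 only), where 0.602% of all genes were called with 15 libraries. At an unadjusted p under 0.05, 7 of the 38 were higher and 4 lower, against 2.5% and 19.8% of all genes. Of 29 bile acid genes 0 were called in either limma fit, and 7 were higher and 1 lower unadjusted with 15 libraries. Slc10a1, the bile acid importer NTCP of hepatocytes, stood at 0.93 (limma adjusted p = 0.0649), with 195 to 837 FPKM in the 7 WT libraries and 597 to 1135 in LKO, and at 1.16 with 16 libraries (adjusted p = 0.183). Me1 was also the called member of the 25 genes of the NRF2 antioxidant response. Elovl3 was the called member of 26 genes of the growth hormone axis. Of that axis Stat5a, a transcription factor downstream of growth hormone, stood at −0.59 (adjusted p = 0.0551), and at −0.35 with 16 libraries (0.663). Of 42 nuclear genes of electron transport none was called, but all 42 lay above the median of all genes. Of 49 cytosolic ribosomal protein genes none was called and 1 lay above that median. The medians were 0.084 and −0.31 with 15 libraries and 0.12 and −0.42 with 16. Of 14 genes of p53 and growth arrest none was called and 7 were lower at an unadjusted p under 0.05, where 19.8% of all genes were, with a median of −0.48 (−0.38 with 16 libraries). Among these Trp53inp1 stood at −1.26 (adjusted p = 0.0573), and at −0.84 with 16 libraries (0.563). Of 21 genes of fibrosis and extracellular matrix none was called, with 0 higher and 2 lower at an unadjusted p under 0.05 and a median of −0.43 (−0.41 with 16 libraries). Without WT ethanol library 2, integrated stress response had Vldlr as its called member of 20, and urea cycle and zonation had Cyp2f2 of 21. In the fits with 16 and with 15 libraries 0 were called of 20 genes of endoplasmic reticulum stress, 27 of cholesterol synthesis, 12 of ethanol metabolism, 19 of iron handling, 18 immediate early genes, 19 of the circadian clock, 15 of the cell cycle and 12 mitochondrial genome transcripts. At an unadjusted p under 0.05 these lists held 0 to 2 higher and 0 to 4 lower members each with 15 libraries, against 2.5% and 19.8% of all genes.

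With the split as a term, which called 1.27% of all genes higher and 8.64% lower, more list members passed. Besides those of fat synthesis and oxidation given above, they included Slc10a1 and Slc51b (higher) of 29 bile acid genes, and Sult5a1, Cyp2c29 and Ces2c (higher) and Cyp3a11, Nr1i2 and Aldh1a7 (lower) of 38 genes of drug metabolism. Of 49 ribosomal protein genes 8 passed lower, and of 42 of electron transport Cycs and Cox7a2 passed higher. Trp53inp1 and Ccng1 of p53 and growth arrest, Irs2 and Foxo1 of glucose metabolism, Stat5a, Notch1, Saa3, Fosl2, Per1, Pcna and Vldlr passed lower, and Pklr, Hamp2, Me1, Elovl3, Fgfrl1 and Cyp2f2 higher. No tested member of the inflammation, endoplasmic reticulum stress, cholesterol, ethanol metabolism, fibrosis and mitochondrial genome lists passed.

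Called genes lay on 20 chromosomes, with at most 7 on one. Of the 63 tested genes within 5 Mb of Zfp36l1, 0 were called with 16 libraries (all genes 0.115%) and 1 with 15 (all genes 0.602%). It was the nearest tested gene, the processed transcript 2310015A10Rik, which lies 7533 bases from Zfp36l1 and was singled out after its value was seen. It fell by 0.48 on the log2 scale (SE 0.0987, limma adjusted p = 0.0389), at 0.855 to 1.94 FPKM in the 7 WT libraries and 0.378 to 0.993 in LKO. It was below 1 FPKM in every LKO library and entered the test only through WT. With 16 libraries it stood at −0.32 (adjusted p = 0.531). Whether reads of the 2 loci mix was not tested.

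The mouse liver markers were high in all libraries, with a hepatocyte sum of 58160 to 90520 FPKM over the 15 and 69790 in WT ethanol library 2. Of the marker genes of other cell types that were tested, none was called in either limma fit, but many were too low to be tested: 3 of 10 neutrophil, 4 of 11 T and natural killer cell, 3 of 9 B cell, 1 of 12 pancreatic, 3 of 8 adipocyte and 0 of 8 kidney and lung markers entered. The summed levels of macrophage markers were 166.8 to 856.3 FPKM in LKO and 251.8 to 839.3 in the 7 WT libraries, those of endothelial cells 74.2 to 223.8 and 100.2 to 200.8, and those of stellate cells 126.1 to 224 and 109.3 to 301.3. Over both diets the ranges of the genotypes overlapped for each marker list. Within a diet and without WT ethanol library 2 they were apart for 1 list, the pancreatic acinar markers on the control diet, at 9.67 to 17.0 FPKM in WT and 18.9 to 28.5 in LKO. Of the 12 pancreatic markers Cpa1, Prss2, Try4 and Amy2a5 were at 0 in every library, as was the adipocyte marker Lep. The part of cell makeup in the results was not tested.

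The number of calls moved with single libraries, while none of the called genes recomputed under the alternatives turned the sign of its pooled difference. With 16 libraries, leaving out 1 gave 8 calls (without WT control library 3, or without LKO control library 3) to 68 (without WT ethanol library 2), and 28 without WT control library 2. With 15 libraries, leaving out 1 more gave 23 (WT control library 3) to 670 (WT ethanol library 1). In that last fit only WT ethanol libraries 3 and 4 stood for their group, and both lay on one side of the split. Without LKO ethanol library 2 there were 156 calls, without WT control library 2 there were 122, and without LKO control library 3 there were 98.

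**Figure D5:**
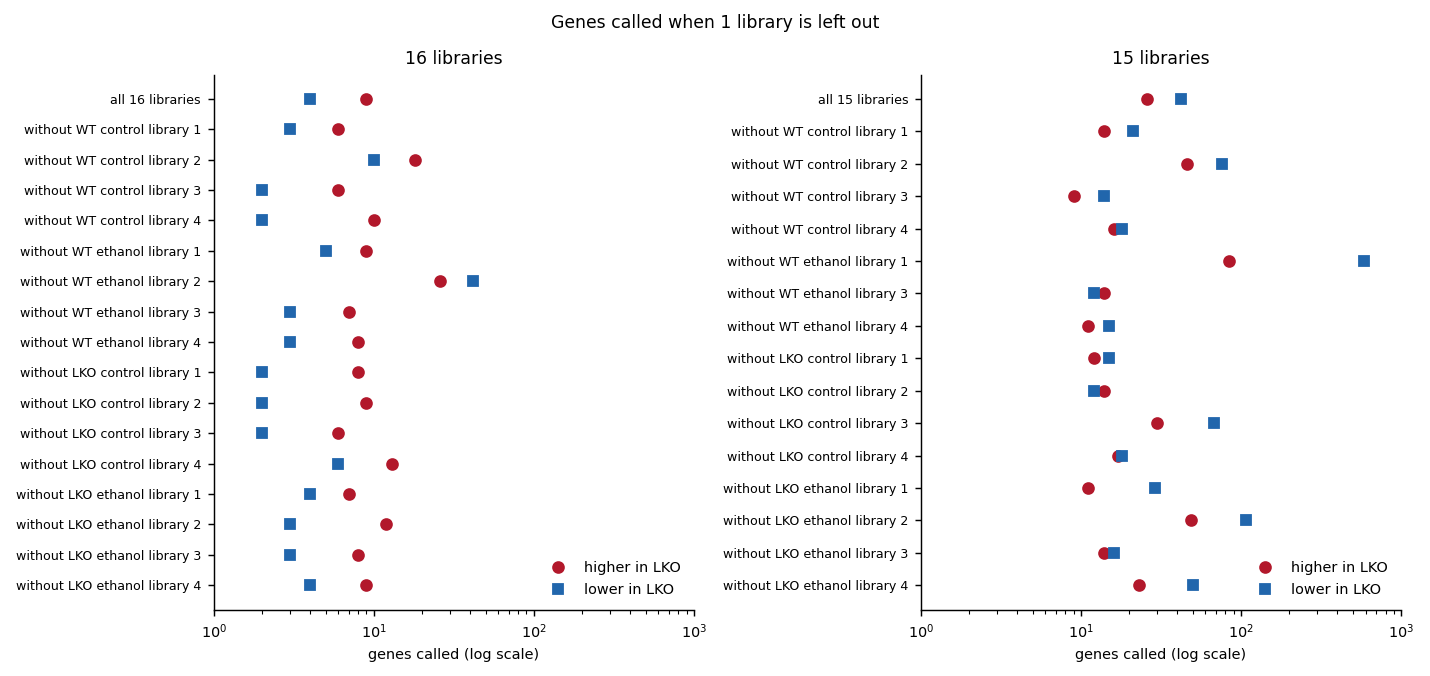
Genes called higher (red circles) and lower (blue squares) in LKO (x axis, log scale) with all libraries and with 1 library left out (y axis), for 16 libraries (left) and for the 15 without WT ethanol library 2 (right). On the left WT ethanol library 2 moves the counts most, and on the right WT ethanol library 1.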

How the data were processed

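Liver RNA libraries of 16 samples were analysed from the authors' deposited table of FPKM values (1 value per gene and library, 35275 Ensembl genes). Reads were trimmed with fastp, aligned with STAR 2.6.1 to mm10 and counted with HTSeq, and DESeq2 is named as well, per the submitters' processing notes, which give no settings. Whether counting used strand is not given in the sources used here, so overlapping and near-identical genes may share reads. Symbols and positions come from GENCODE M21 (GRCm38) and matched 34490 genes.

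Libraries were grouped by their treatment labels. Genes with FPKM of at least 1 in at least 4 of 16 libraries (11298) were fitted as log2(FPKM + 1) with genotype and diet in limma 3.58.1 (R 4.3.3, equal weights, trended eBayes), two-sided, with Benjamini-Hochberg adjustment over all genes. The pseudocount of 1 understates changes of low genes. Reads behind each FPKM were recovered from the steps of the values (all 24377 genes above 0, within 0.02 of a whole read) and served for depth and for voom. Zfp36l1 and Fgf21 were also tested by exact permutation within diets. The procedure was tested on simulated data.

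Alternatives were another pseudocount, other filters, scalings, weights and models, and each library left out. Named genes were Zfp36l1, Fgf21, Zfp36 and Zfp36l2, the 12 largest rises and falls called with 16 libraries, the 8 largest of each called only with 15, passing over predicted genes and pseudogenes, and at most 4 members of each list at an adjusted p under 0.1. The lists and the groups compared were chosen with earlier results of these data known.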

Additional observations from a re-analysis of the deposited data

Results flagged for a closer look

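In groups of 4 libraries, the highest or the lowest value was looked for that lay far from the other 3 by Dixon's criterion, the gap to the nearest value as a share of the whole range of the group. Of 204 groups (51 named genes in 4 groups), 16 met this, and chance alone does so in about 5% of groups.

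WT ethanol library 2 was the one in 5 of the 16. It stood low for Stat5a (0.409 FPKM), Cyp2f2 (4.44) and Cmas (6.49), and high for Serpine2 (5.39) and Chchd7 (25.8). These 5 genes had a smaller adjusted p without it. They were named through the fit without that library, so this is largely built into their choice. In the WT ethanol group Elovl3 was highest in library 1 (0.241 FPKM) and Sult5a1 lowest in library 4 (0.655).

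LKO control library 3 held the highest Fgf21 of its group (13.1 FPKM) and the lowest Mup2 (10.5). LKO control library 4 held the highest Elovl3 (33.0 FPKM) and Cyp2f2 (473) of its group, and LKO control library 2 the lowest Pklr (153). In the LKO ethanol group library 2 was highest for Steap2 (0.573 FPKM) and Vldlr (2.88), and library 3 was lowest for Cyp4a14 (138.5 FPKM). Cyp2g1 was lowest in WT control library 3 (1.02 FPKM).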

How the results depend on the processing

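With 16 libraries the 13 calls became 14 with a pseudocount of 0.1, 3 with no filter, 3 at a mean FPKM of at least 5, 20 and 35 with quantile and median-of-ratios scaling, 6 with no diet term, 16 with 4 group means, 1226 with array weights and 9 with voom, and 8 to 68 with 1 library left out. With 15 libraries the 68 became 36 with no filter, 13 at a mean FPKM of at least 5, 44 with quantile and 97 with median-of-ratios scaling, 16 with no diet term, 121 with group means, 1461 with array weights (weight of WT ethanol library 2 in the first of these fits 0.05), 141 with voom, 1120 with the split as a term, and 23 to 670 with 1 more library left out. The cause of these moves was not tested. Of the main 13, 11 stayed called under quantile and 12 under median-of-ratios scaling; of the 68, 31 and 44. Zfp36 turned to −0.256 with array weights, −0.292 without WT ethanol library 2 and −0.241 with the split as a term, and Zfp36l2 to −0.141, −0.0707 and −0.0224; with 1 of the 16 left out they ranged from −0.292 to 0.353 and from −0.0707 to 0.361. The exact tests of Zfp36l1 and Fgf21 stayed on their side of the threshold under each setting run: Zfp36l1 at −3.64 to −2.75, Fgf21 at 0.10 to 0.85. No paired analysis was possible because the labels give the groups no shared replicate numbers; the split was found in the data and is not such a number. Depth limits Cabp2, Jazf1 and Elovl3, whose WT libraries hold few reads, and arithmetic on FPKM carries no counting error into the limma fit.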

Other observations

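The major urinary protein genes, which encode pheromone-carrying proteins made by the liver, were looked at after their values were seen. Of 13 such genes tested, all on chromosome 4, 11 were higher in LKO without WT ethanol library 2, where 20.05% of all genes were, and 8 of them passed an unadjusted p under 0.05, where 2.5% of all genes passed higher. Their reads may be shared, so they are not 13 separate measurements, and their median difference was 1.07 on the log2 scale (0.97 with 16 libraries). Mup2 alone was called (1.62, limma adjusted p = 0.0359, and 1.46 with 16 libraries, 0.112), and it lost its call in 9 of 15 fits with 1 more library left out. It measured 7.35, 6.74, 2.66 and 5.18 FPKM in WT and 15.7, 16, 10.5 and 15.1 in LKO on the control diet, with no overlap. On ethanol Mup2 measured 6.71, 5.89, 0.489 and 0.325 FPKM in WT and 12.1, 5.73, 8.99 and 9.97 in LKO. Mup15 had the largest difference, 3.54 (SE 0.785, adjusted p = 0.0503), with a median of 107 FPKM in LKO (12.8 to 210.0) and 7.93 in the 7 WT libraries (0 to 89.0). Mup17 followed with 3.37 (adjusted p = 0.066). Mup20 went the other way, at −0.79 (SE 0.579, adjusted p = 0.412). Genes of this family are near-identical, so reads may be split among copies, and the values of single members are uncertain.

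Among the genes called without WT ethanol library 2 that no list or size rule named, Ddb2 and Xrcc3, which act in DNA repair, fell by 0.50 and 0.57 on the log2 scale (limma adjusted p = 0.0455 and 0.0457). Maoa, the monoamine oxidase A, fell by 0.71 (adjusted p = 0.0389), and Paics, an enzyme of purine synthesis, by 0.78 (adjusted p = 0.046). Gch1, the first enzyme of tetrahydrobiopterin synthesis, rose by 0.59 (adjusted p = 0.0335), and Hagh, the glyoxalase that clears methylglyoxal products, by 0.74 (adjusted p = 0.0455). With 16 libraries none of these 6 was called, with adjusted p of 0.110 for Ddb2 to 0.740 for Paics, and Maoa stood at −0.56 and Paics at −0.41.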
